A study of Rattus norvegicus with 4 samples.

Results

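Integrins and laminins were followed here as a group of 34 genes of the rat heart, 24 integrin subunit genes (16 alpha, 8 beta) and 10 laminin chain genes, picked by gene symbol from the 32623 genes of one table of single nuclei. The members were all gene symbols made of Itga or Itgb with one number or letter and of Lama, Lamb or Lamc with one number, and no measured value entered the choice. The nuclei came from the infarct zone of Sprague Dawley rats in 4 samples, which the labels call MI with 1 h, 6 h and 24 h of reperfusion, and sham. Each sample was 1 library of nuclear RNA, made with droplet chemistry that tags the 3' end of transcripts. Strain and tissue label were shared by all 4 samples, and the labels give neither sex, age nor how many animals a library holds. MI stands for myocardial infarction, which the design text describes as a tied left anterior descending artery. That text counts the hours as ligation and names reperfused animals apart, so whether they mean ligation or reperfusion could not be decided.

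The deposited table pools the 4 samples, and its barcodes carry suffixes 1 to 4 that no label ties to a sample. The suffixes are therefore called libraries 1 to 4, and no comparison with sham or between times was possible. With 1 library per sample there is also no replicate, so no p-value is given, and every interval below is a 95% counting interval that covers counting error alone. Levels are UMIs (unique molecular identifiers, 1 per captured molecule) of a gene divided by all UMIs of the class and scaled to 1000000, written CPM; they are not scaled by transcript length, so they compare one gene between cells and not one gene with another. Unless libraries are named, 4 values stand for libraries 1, 2, 3 and 4 in that order. Of 48637 barcodes, 41728 nuclei were used and 29086 were placed in 12 classes by marker genes, none of which was an integrin or a laminin. Of the 12337 unnamed nuclei, 10986 were in library 2, whose median was 603 UMIs per nucleus against 1298 to 2213 in the other libraries. Cardiomyocyte-like, fibroblast-like, endothelial-like, pericyte-like and macrophage-like nuclei numbered 5080, 7095, 7187, 1649 and 5122. Of the 151 pericyte-like nuclei of library 2, 131 lay in a part of the class that could be named neither pericyte nor smooth muscle. Against the rest of the class, its pericyte markers averaged -0.214 and its smooth muscle markers 0.503 on the log2 scale. Pericyte-like values of library 2 rest mostly on that part. Smaller classes were lymphatic endothelial-like, dendritic-like, neutrophil-like, T or NK cell-like, B cell-like, Schwann-like and epicardial-like nuclei, and Schwann-like and epicardial-like classes held 237 and 65 nuclei. A level is given where a class had at least 20 nuclei in a library, and a comparison where it had at least 50. A member was called higher or lower in a class when its CPM + 10 was at least 2-fold away from that of all other named classes summed, in the same direction, in every library compared. Of 143 fixed markers 138 were in the table, Ttn, Pecam1, Il7r and Cd79a not among them. Of 48372 distinct barcode sequences, 264 occurred in more than 1 library.

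Laminins are secreted as trimers of an alpha, a beta and a gamma chain and form the sheet on which basement membranes are built. Integrins are receptors made of one alpha and one beta subunit, both crossing the membrane, and they tie laminin, collagen, fibronectin or proteins on other cells to the cytoskeleton. In the heart a basement membrane surrounds each muscle cell and underlies each vessel, and loss of the chain encoded by Lama2 causes a congenital muscular dystrophy. Leukocytes use their own set of subunits, paired with the products of Itgb2 or Itgb7, to stop on and cross the vessel wall.

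Among the laminin alpha chains, Lama2, the chain of skeletal and cardiac muscle basement membrane, reached 3407, 1526, 1079 and 1183 CPM in the cardiomyocyte-like class and 4262, 1176, 1347 and 1499 CPM in the fibroblast-like one. Schwann-like nuclei, which wrap heart nerves, held 2919, 1250.2, 1339 and 1467 CPM and pericyte-like nuclei 1759.8, 604, 739 and 704 CPM. Endothelial-like nuclei held 440.3, 312, 208 and 116 CPM, against 3379, 1212, 819 and 1031 CPM in all other named classes summed. In every library the endothelial-like level lay below the others, with ratios of 0.13 (0.123 to 0.138), 0.257 (0.223 to 0.294), 0.254 (0.24 to 0.268) and 0.113 (0.105 to 0.121). Lymphatic endothelial-like nuclei were also low, at 443, 363, 207 and 147 CPM, and macrophage-like nuclei held 595, 435, 153 and 82.2 CPM. Library 1 had the highest Lama2 level of the 4 libraries in each of these 7 classes.

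Lama4, the alpha chain of vessel and nerve basement membranes, stood highest in lymphatic endothelial-like nuclei at 2259.6, 1384, 1262 and 1229 CPM. Over the other named classes its ratios there were 3.81 (3.46 to 4.19), 2.59 (2.38 to 2.82) and 2.28 (2.05 to 2.53) in libraries 1, 3 and 4, and library 2 had only 25 such nuclei. Fibroblast-like nuclei held 1204, 657, 784 and 834 CPM and pericyte-like nuclei 816, 676, 575 and 684 CPM, the order of the pair changing in library 2. Blood endothelial-like nuclei held 688, 606, 559 and 555 CPM, below the lymphatic class in all 4 libraries. Cardiomyocyte-like nuclei held 339, 341, 399 and 441 CPM and macrophage-like nuclei 158, 145, 186 and 156 CPM, the lowest of these classes in every library.

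Lama5, an alpha chain of mature vessel and epithelial basement membranes, reached 62.3, 137, 60 and 114 CPM among cardiomyocyte-like, 69, 101, 63 and 111 CPM in endothelial-like and 48.1, 179, 38.6 and 96.6 CPM in pericyte-like nuclei. Each library had another class on top when all classes were ranked. Within 2 classes its level differed between parts. Arterial-like endothelial nuclei held 222, 164 and 223 CPM of Lama5 in libraries 1, 3 and 4, against 54.7, 64 and 104 CPM in the endothelial-like nuclei that were neither arterial-like nor endocardial-like, ratios of 4.06 (2.99 to 5.48), 2.57 (1.91 to 3.41) and 2.14 (1.78 to 2.56). Smooth muscle-like nuclei held 327 and 315 CPM in libraries 1 and 4, against 11.2 and 41.1 CPM in the pericyte-like nuclei named by their own markers. Those ratios were 29.2 (10.6 to 99.5) and 7.67 (3.38 to 20.4). Each library had 51 smooth muscle-like nuclei, and the gene fell short of the 100 UMIs that a call required. Of 26 members tested, Lama5 was called higher in arterial-like nuclei, where 0.93% of all genes were, and Itga8 lower, where 0.911% were. Itga8 was at 13.1, 2.83 and 5.78 CPM there, with ratios of 0.267 (0.0715 to 0.701), 0.109 (0.00275 to 0.621) and 0.171 (0.0462 to 0.445). With 9 UMIs in arterial-like nuclei and 447 in the remaining ones, Itga8 reached the 100 UMIs through the latter alone. That call is not read as a result.

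The beta chain genes Lamb1 and Lamb2 were highest in different classes. Lamb1, the beta chain of the most widespread laminins, was highest in fibroblast-like nuclei in every library at 357, 239, 253 and 367 CPM, with ratios over the other classes of 3.67 (3.38 to 3.99), 1.65 (1.42 to 1.93), 1.9 (1.8 to 2) and 2.42 (2.25 to 2.6). Pericyte-like and endothelial-like nuclei held 172 to 179 CPM and 135 to 199 CPM. Lamb2, the beta chain of synaptic and mature muscle and vessel laminins, was highest in cardiomyocyte-like nuclei among whole classes in every library, at 754, 289.5, 177 and 272 CPM, with ratios of 2.71 (2.58 to 2.85), 1.95 (1.68 to 2.27), 1.75 (1.63 to 1.87) and 1.7 (1.59 to 1.82). In library 4 Schwann-like nuclei, with 269 CPM, reached nearly the same Lamb2 level. Neither Lamb1 nor Lamb2 was called, since at least one library stayed below 2-fold. Arterial-like nuclei held more Lamb2, 490.1, 232 and 329.7 CPM in libraries 1, 3 and 4, than the remaining endothelial-like nuclei at 287, 127 and 164 CPM. In libraries 3 and 4 the arterial-like level also lay above that of cardiomyocyte-like nuclei.

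The gamma chain shared by most laminins, Lamc1, also peaked in fibroblast-like nuclei in all 4 libraries, at 3453, 1948, 1592 and 1842 CPM. Its ratios over the other classes were 4.1 (3.99 to 4.21), 1.57 (1.49 to 1.66), 2.53 (2.48 to 2.59) and 2.02 (1.96 to 2.09). Cardiomyocyte-like nuclei held 807, 1488, 1055 and 1247 CPM, endothelial-like nuclei 897, 1005, 734 and 849.7 CPM and macrophage-like nuclei 248, 508, 262 and 208 CPM. Cardiomyocyte-like nuclei lay below endothelial-like ones in library 1 and above them in the other libraries, while the macrophage-like level stayed below theirs in each library.

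Lamb3 encodes a laminin beta chain of epithelial basement membranes. Lamb3 was at 12, 18.1, 8.47 and 12.7 CPM in cardiomyocyte-like nuclei, the highest of the ranked classes in every library. The epicardial-like nuclei of libraries 3 and 4, cells of the heart's outer epithelium, held 105 and 133 CPM. That class was too small to rank, and its Lamb3 level was higher than that of the cardiomyocyte-like nuclei in both libraries.

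**Figure D1:**
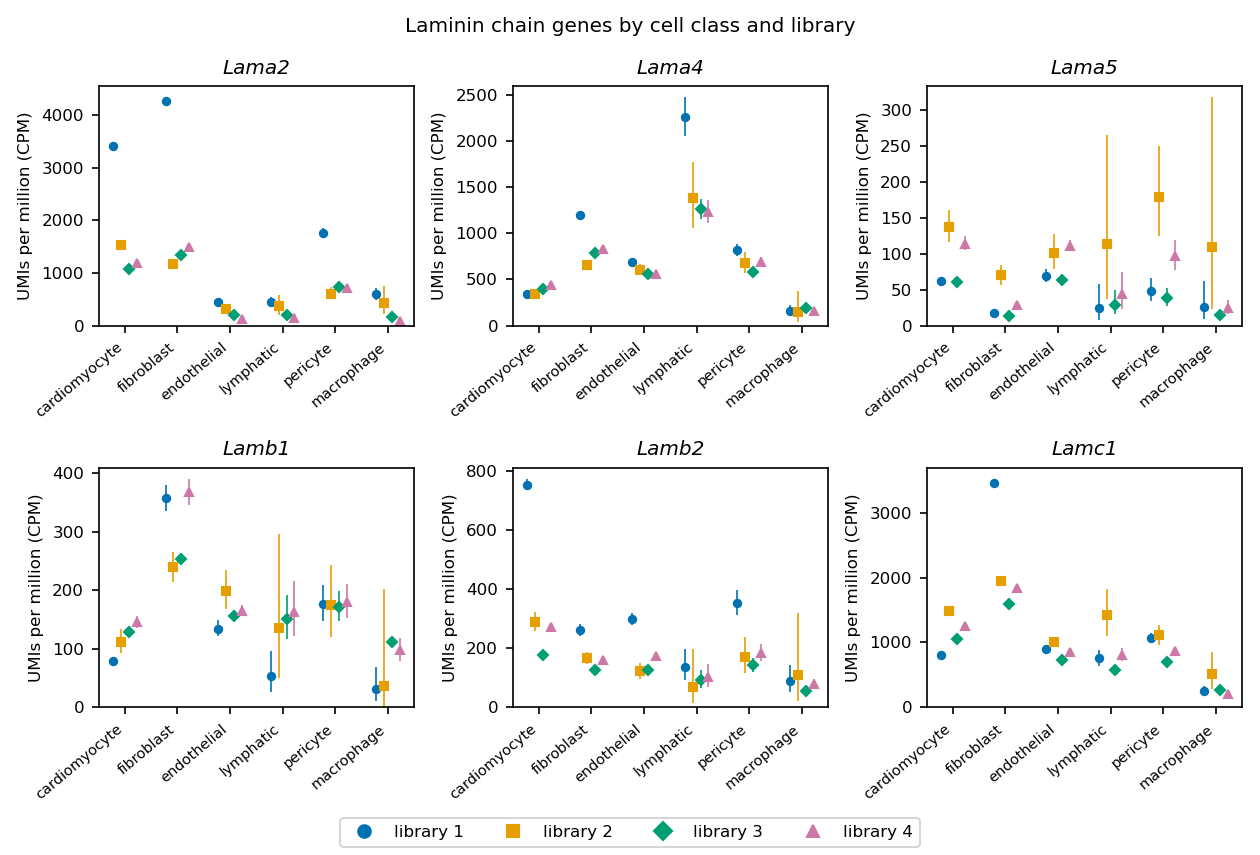
CPM (vertical axes, linear) of 6 laminin chain genes in 6 cell classes; each point is 1 library and bars are 95% Poisson intervals of its UMI sum. Lama2 is low in both endothelial-like classes and in macrophage-like nuclei. Lama4 is highest in lymphatic endothelial-like nuclei, and Lamb1 and Lamc1 are highest in fibroblast-like nuclei.

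Of the subunits that bind laminin with the Itgb1 product, Itga7, the laminin receptor of striated and smooth muscle, was at 211, 142, 94.5 and 144 CPM in cardiomyocyte-like nuclei, against 68.2, 39.7, 15.7 and 22.4 CPM in the other named classes. Its ratios were 3.1 (2.8 to 3.43), 3.58 (2.77 to 4.64), 6.02 (5.33 to 6.8) and 6.45 (5.62 to 7.41). Pericyte-like nuclei held 471, 123, 117 and 167 CPM, above the cardiomyocyte-like level in libraries 1, 3 and 4. Inside that class, smooth muscle-like nuclei at 475 and 224 CPM had ratios to pericyte-like ones whose intervals include equality, 0.793 (0.521 to 1.17) and 0.978 (0.576 to 1.64) in libraries 1 and 4. The call in cardiomyocyte-like nuclei was lost when each other class weighed the same, pericyte-like nuclei included. Itga7 was called lower in fibroblast-like nuclei, at 15.4, 30, 9.18 and 14.4 CPM, and in endothelial-like nuclei, at 17.5, 29.5, 11.8 and 9.29 CPM. Among cardiomyocyte-like nuclei, 43.8%, 24.8%, 34.6% and 48.8% had a UMI of Itga7, against 2.01%, 2.3% and 3.03% of macrophage-like nuclei in libraries 1, 3 and 4. Thinned to 500 UMIs per nucleus, the cardiomyocyte-like shares were 11.3%, 8.19%, 5.27% and 7.05%.

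Itga6, a laminin receptor subunit of vessel walls and epithelia, was the member whose highest class was endothelial-like in all 4 libraries, at 648, 219, 300 and 316 CPM. Ratios over the other classes were 7.88 (7.31 to 8.51), 2.03 (1.67 to 2.47), 2.25 (2.13 to 2.38) and 2.5 (2.34 to 2.68), so library 2 stood at the edge of the 2-fold rule and the gene was not called there on the CPM + 10 scale. Fibroblast-like nuclei held 23.8, 78.7, 55.5 and 49 CPM, the lowest of the 5 large classes in libraries 1, 3 and 4. Endocardial-like nuclei, the lining of the heart chambers, were below the remaining endothelial-like nuclei at 158, 189.7, 189.8 and 157 CPM, with ratios of 0.221 (0.152 to 0.31), 0.813 (0.562 to 1.16), 0.57 (0.496 to 0.652) and 0.454 (0.376 to 0.545). In library 2 the interval of that ratio includes equality. Itga3, which also binds laminin, was at 19.9, 24.4, 29.9 and 48.7 CPM in the nuclei of the cardiomyocyte-like class and 33, 14, 22.9 and 26.2 CPM in endothelial-like nuclei. Smooth muscle-like nuclei held 49.1 and 99.5 CPM of it in libraries 1 and 4.

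Itgb4, which pairs with the Itga6 product in Schwann cells and epithelia, set the Schwann-like class apart. The 107 Schwann-like nuclei of library 1 held 838 CPM (95% interval 681 to 1019.8), against 9.3 CPM in the other classes, a ratio of 90.1 (69.1 to 117). Libraries 2, 3 and 4 had 33, 48 and 49 Schwann-like nuclei, with 281, 394 and 444 CPM. In library 1 a UMI of Itgb4 was found in 51.4% of Schwann-like nuclei, 34.6% after thinning, against 0.443% of cardiomyocyte-like nuclei. Inside the endothelium it marked the endocardial-like nuclei at 265, 109.6, 173 and 86.2 CPM, against 9.8, 23.1, 37 and 19.6 CPM in the remaining endothelial-like nuclei. The ratios were 27.1 (16.5 to 45.6), 4.74 (2.26 to 10.6), 4.67 (3.81 to 5.72) and 4.41 (3.21 to 6.02), and Itgb4 was the one member called higher there, beside 1.12% of all genes. The one member called lower in endocardial-like nuclei was Itga2, also beside 1.12% of all genes. It was at 0, 8.43, 6.22 and 8.88 CPM, against 24.5, 40, 25.1 and 34.7 CPM. Intervals of its ratios were 0 to 0.723, 0.0238 to 0.875, 0.105 to 0.505 and 0.102 to 0.537. With 17 UMIs in endocardial-like nuclei and 394 in the remaining ones, Itga2 reached the UMI minimum of a call through the latter alone. That call is not read as a result. For Itgb4, arterial-like nuclei lay between, at 55.6, 82.2 and 79.5 CPM in libraries 1, 3 and 4.

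Schwann-like nuclei of library 1 also stood out in Itgb8, a subunit that pairs with the Itgav product, at 347 CPM (95% interval 249 to 471), a ratio of 11.2 (7.91 to 15.4) over the other classes. Itga4 was at 186 CPM (95% interval 117 to 282) there, with a ratio of 16 (9.76 to 24.9). Across libraries Itgb8 was at 347, 51, 129 and 162 CPM in Schwann-like nuclei and at 355 and 114 CPM in libraries 3 and 4 in epicardial-like nuclei, while fibroblast-like and cardiomyocyte-like nuclei held 39 to 49.7 CPM and 27.1 to 49 CPM. In the Schwann-like class of library 1, 4 of 30 members (Itga2, Itga4, Itgb4 and Itgb8) were called higher and 4 lower, Itga5, Itga8 and Itga9 among them. A single library had to pass there, and 8.68% and 12.4% of all genes did. The 4 lower calls make 13.3% of members, close to the share of all genes, and no result about the members can be read from them.

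Of the collagen receptor subunits, Itga1, which binds basement membrane collagen, was at 953, 331, 293 and 355 CPM in endothelial-like and 701, 543, 466 and 506 CPM in pericyte-like nuclei. Endothelial-like nuclei led in library 1, and pericyte-like nuclei in libraries 2, 3 and 4. Endocardial-like nuclei had less than the other endothelial-like nuclei in library 1, 116 against 1057 CPM, and ratios of 0.11 (0.0711 to 0.163), 0.795 (0.59 to 1.06), 0.521 (0.45 to 0.601) and 0.654 (0.561 to 0.76) over the 4 libraries. Macrophage-like nuclei were called lower, at 79, 72.5, 46.5 and 43.1 CPM. Itga2, the collagen receptor subunit of platelets, was at 39.6, 78.4, 35.9 and 39.3 CPM in T or NK cell-like nuclei and 21.9, 29.5, 20.9 and 31.3 CPM in endothelial-like nuclei. Itga11, a fibrillar collagen receptor of fibroblasts, had 170 UMIs in the named nuclei and was highest in fibroblast-like nuclei in each library, at 14.4, 6.97, 3.92 and 7.39 CPM.

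Itga9, whose product binds tenascin, osteopontin and lymphatic growth factors and is needed for lymphatic valves in mice, was at 1979, 885, 1215 and 788 CPM in lymphatic endothelial-like nuclei. In libraries 1, 3 and 4 the other named classes held 356, 231 and 329.8 CPM, and the ratios were 5.56 (5.01 to 6.16), 5.27 (4.82 to 5.74) and 2.39 (2.09 to 2.72). A UMI was found in 76.7%, 79.3% and 71.2% of those nuclei in these libraries, 53.5%, 37% and 35% after thinning, against 30.7%, 13.5% and 15.5% of macrophage-like nuclei. Cardiomyocyte-like nuclei held 426, 559, 519 and 588 CPM, close to the macrophage-like level in library 1, and the lymphatic level was above theirs in every library. Neutrophil-like, dendritic-like and B cell-like nuclei were called lower for Itga9, at 44.3 to 107 CPM, 46.1 to 141 CPM and 78.1 to 102 CPM. With Lama4, Itga9 made 2 of 30 members called higher in the lymphatic class, where 1.6% of all genes were.

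Macrophage-like nuclei fell into 2 clusters, and Itga9 and Itgb5 differed between them. Cluster 14, with 149, 242 and 51 nuclei in libraries 1, 3 and 4, held 532, 648 and 867 CPM of Itga9 in those libraries, against 106, 86.9 and 101 CPM in cluster 1, which held 50, 4063 and 544 nuclei there. The ratios were 5 (2.05 to 15.8), 7.45 (6.51 to 8.5) and 8.58 (6.33 to 11.6). Itgb5, a partner of the Itgav product in binding vitronectin and dying cells, was at 567, 238 and 369 CPM in cluster 14 and 106, 128 and 78.2 CPM in cluster 1, ratios of 5.33 (2.19 to 16.9), 1.86 (1.53 to 2.24) and 4.71 (3.08 to 7.1). Itgam ran the other way, at 364, 362 and 468 CPM in cluster 14 and 829.9, 641 and 858 CPM in cluster 1. Itgb2 was likewise lower in cluster 14 in these libraries, with ratios of 0.117 (0.0331 to 0.345), 0.542 (0.438 to 0.665) and 0.406 (0.22 to 0.692). The difference in Itgb5 between macrophage-like nuclei of library 1 (453 CPM) and of libraries 3 and 4 (135 and 107 CPM) stands beside a different mix of clusters; its part in that difference was not tested. By the rule of at least 2-fold on the CPM + 10 scale in 3 libraries, of 22 members tested Itga9 was called higher in cluster 14, beside 1.08% of all genes. Itgb3, with 0, 5 and 0 UMIs in cluster 14 and 1, 214 and 47 in cluster 1, also passed the line, as lower (0.738% of all genes did), but reached the 100 UMIs through cluster 1 alone. In library 1 its ratio has an interval of 0 to 12.8, and it is not read as a difference.

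Subunits that recognise the RGD motif of fibronectin and vitronectin were spread widely. Itga5, the fibronectin receptor subunit, was highest in fibroblast-like nuclei in each ranking at 182, 314, 278 and 379.5 CPM, while cardiomyocyte-like nuclei held 176, 192, 186 and 227 CPM and endothelial-like nuclei 104, 246, 231 and 262 CPM. Itgav held 74.5 to 142 CPM in cardiomyocyte-like, 133 to 182 CPM in fibroblast-like and 109 to 203 CPM in macrophage-like nuclei, ranges that overlap. Itga8, a receptor for nephronectin on smooth muscle and fibroblasts, was at 143, 0, 37.8 and 50.1 CPM in lymphatic endothelial-like, 27, 90.6, 79.7 and 49.4 CPM in fibroblast-like and 93.7, 10.2, 48 and 73.6 CPM in pericyte-like nuclei. Smooth muscle-like nuclei held 344 and 307 CPM in libraries 1 and 4, against 76.2 and 46.9 CPM in pericyte-like ones, with ratios of 4.51 (2.49 to 7.99) and 6.54 (3 to 16.2). Of 9 members with enough UMIs, Itga8 was the one called higher in smooth muscle-like nuclei, beside 5.3% of all genes, and 0 were called lower, beside 7.57%. Itgb3, the platelet and vessel vitronectin receptor subunit, stayed at 10.1 to 43.5 CPM in endothelial-like and 26.2 to 46.7 CPM in fibroblast-like nuclei. Itgb5 was at 82.1 to 111 CPM in cardiomyocyte-like and 89.9 to 165 CPM in fibroblast-like nuclei.

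**Figure D2:**
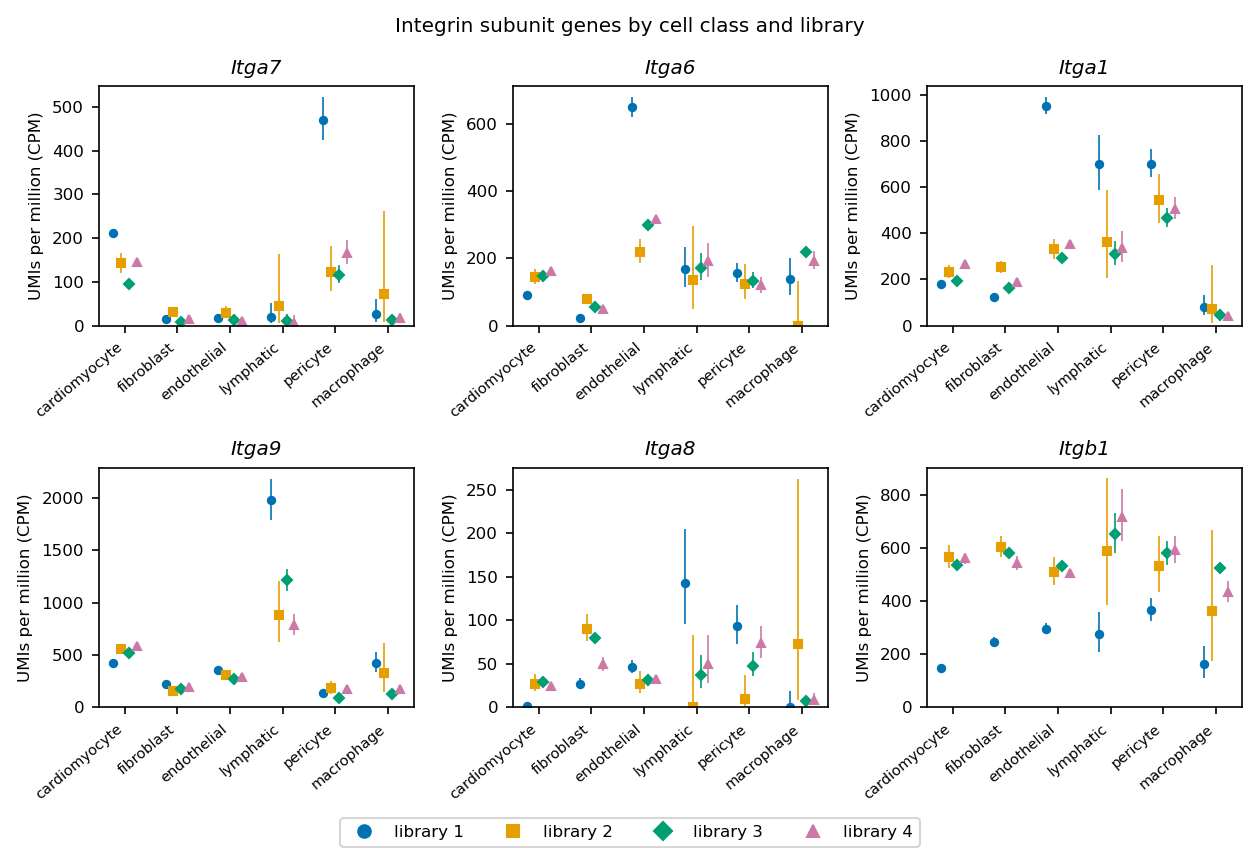
CPM (vertical axes, linear) of 6 integrin subunit genes in 6 cell classes; each point is 1 library and bars are 95% Poisson intervals. Itga7 is high in cardiomyocyte-like and pericyte-like nuclei, Itga6 and Itga1 in vessel classes and Itga9 in lymphatic endothelial-like nuclei, and Itgb1 is lowest in library 1 in every class drawn.

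Leukocyte subunits set the immune classes apart. Itgam, which with Itgb2 makes the complement receptor of myeloid cells, was at 479, 471, 622 and 819 CPM in macrophage-like nuclei and 591, 481 and 496 CPM in libraries 2, 3 and 4 in neutrophil-like nuclei. Over the other named classes the macrophage-like ratios were 52.4 (39.8 to 68.7), 3.88 (3.73 to 4.04) and 9.09 (8.35 to 9.9) in libraries 1, 3 and 4. Itgb2 was at 100.1, 399, 327 and 323 CPM in macrophage-like, 311 and 268 CPM in libraries 3 and 4 in dendritic-like and 269, 327 and 195 CPM in libraries 2, 3 and 4 in neutrophil-like nuclei. In library 3 these classes lay close together. Itgal, the partner of Itgb2 on lymphocytes, was called higher in all of macrophage-like, neutrophil-like, T or NK cell-like and B cell-like nuclei, at 90.8 to 100.1 CPM, 138 to 242 CPM, 134 to 188 CPM and 157 to 179 CPM over the libraries compared. With every other class weighted equally the first 3 of these calls were lost, at log2 differences of 0.35, 1.6 and 1.03 instead of 1.81, 2.68 and 2.3. The B cell-like call was lost with no doublets removed and with members among the variable genes, at 0.77 and 0.88 instead of 2.09.

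Dendritic-like nuclei could be compared in libraries 3 and 4 alone. Itgae, which with Itgb7 binds E-cadherin on epithelia and marks a dendritic cell subset, was at 182 and 127 CPM in libraries 3 and 4, against 25.2 and 22.3 CPM in the other classes. Ratios were 7.22 (5.99 to 8.65) and 5.7 (3.4 to 9.02), and a UMI was found in 28.1% and 16.7% of those nuclei, 10.2% and 10% after thinning, against 4.16% and 5.84% of endothelial-like nuclei. Itgb7 was at 90.8 and 80.3 CPM in libraries 3 and 4 and Itgax, a classic dendritic cell marker, at 73.7 and 107 CPM in libraries 3 and 4. Itga4, a receptor for Vcam1, was at 324 and 408 CPM in libraries 3 and 4 and at 274, 218, 285 and 320.1 CPM in macrophage-like nuclei. Neutrophil-like nuclei held similar levels of Itgb7 and Itgax, at 80.6, 102 and 79.7 CPM in libraries 2, 3 and 4 and 94, 78.8 and 88.5 CPM in libraries 2, 3 and 4. In library 1, T or NK cell-like nuclei held 297 CPM (95% interval 200.2 to 424) of Itgax. That class held 113 nuclei in a part that also carried endothelial markers, 49 in a part with pericyte and fibroblast markers and 37 in a part with cardiomyocyte markers, out of 661, and held 485 CPM of Itga1 in library 1; the part of the mixed nuclei in these levels was not tested.

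Leukocyte genes were also counted in nuclei that should lack them, and far more so in libraries 2, 3 and 4 than in library 1. In cardiomyocyte-like nuclei Itgam had 4.24, 94.1, 145 and 73 CPM, and Itgb2 1.06, 22.6, 103 and 35.5 CPM. The 11 macrophage markers, all above 0 there in each library, summed to 45.2, 379.9, 1302 and 521 CPM in cardiomyocyte-like nuclei, and the 9 neutrophil markers to 22.5, 158, 658 and 320.1 CPM. A UMI of Itgam was found in 1.18%, 17.9%, 39.8% and 25.9% of cardiomyocyte-like nuclei, and thinned to 500 UMIs in 0.259%, 4.74%, 5.79% and 2.93%. Macrophage-like nuclei of libraries 1, 3 and 4 gave 30.7%, 59.7% and 66.7%, and 20.6%, 25.8% and 30.6% thinned. Free RNA in droplets gives UMIs in cells that do not express a gene, and leukocyte subunits in cardiomyocyte-like, fibroblast-like and vessel nuclei are not read as expression here. In the other direction, the 11 cardiomyocyte markers summed to 3849.9, 3479.9, 2061 and 2681 CPM in macrophage-like nuclei. An upper estimate of the free share of RNA, the share of UMIs on markers of other classes divided by that share in the whole library, was 32.1%, 55%, 68.6% and 63.9% of UMIs in cardiomyocyte-like nuclei. In libraries 3 and 4 it was 79.8% and 76% in pericyte-like, 64.8% and 57.3% in macrophage-like, 95.4% and 90% in neutrophil-like, 88.5% and 85% in T or NK cell-like, and 91.4% and 95.3% in B cell-like nuclei. The levels given for these classes include that RNA.

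**Figure D3:**
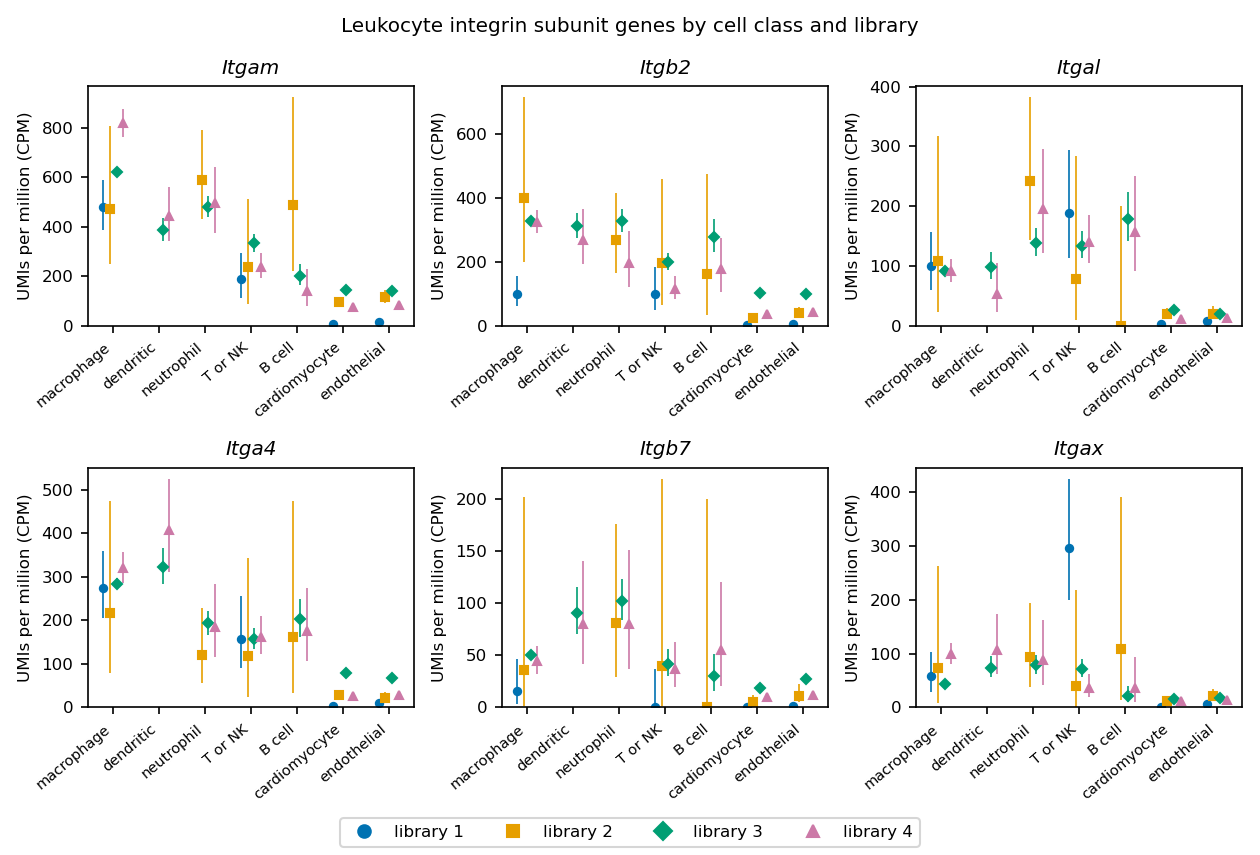
CPM (vertical axes, linear) of 6 leukocyte integrin subunit genes in 5 immune classes and, as classes that should lack them, cardiomyocyte-like and endothelial-like nuclei; each point is 1 library and bars are 95% Poisson intervals. In the last 2 classes library 1 lies near 0 for Itgam and Itgb2 and the other libraries lie above it.

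Itgb1, the beta subunit that pairs with most alpha subunits, was counted in every class. It had 148, 567, 537 and 562 CPM in cardiomyocyte-like nuclei, 247, 604, 583 and 544 CPM in fibroblast-like nuclei and 296, 511, 531 and 505 CPM in endothelial-like nuclei. Pericyte-like and macrophage-like nuclei held 366, 533, 579.9 and 592 CPM and 163, 363, 527 and 435 CPM. Between these 5 classes it differed by less than 2-fold in libraries 2, 3 and 4, and by more than that in library 1. In each of these classes library 1 was the lowest. The median mitochondrial share of UMIs, a sign of cytoplasmic RNA in a nuclear preparation, was 0.0767%, 0.481%, 1.29% and 1.10% in libraries 1, 2, 3 and 4; its part in the Itgb1 levels was not tested.

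Promoter sequence was set beside this spread. RefSeq promoters of the rat build GRCr8, 250 bases before to 50 bases after the gene start, matched 26 of 34 members by symbol. The 4 shown are of Itgam and Itgb7, called higher in leukocyte classes alone, and of members counted in every class, Itgb1 and Itgav, written 5′ to 3′ with each CG dinucleotide in capitals; CG reads the same on both strands.
Itgam: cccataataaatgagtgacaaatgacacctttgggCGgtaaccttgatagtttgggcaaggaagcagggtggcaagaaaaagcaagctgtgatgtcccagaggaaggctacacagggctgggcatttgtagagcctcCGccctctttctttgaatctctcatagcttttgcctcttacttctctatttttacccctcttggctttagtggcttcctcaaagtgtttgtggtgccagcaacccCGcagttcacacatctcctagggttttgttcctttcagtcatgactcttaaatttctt
Itgb7: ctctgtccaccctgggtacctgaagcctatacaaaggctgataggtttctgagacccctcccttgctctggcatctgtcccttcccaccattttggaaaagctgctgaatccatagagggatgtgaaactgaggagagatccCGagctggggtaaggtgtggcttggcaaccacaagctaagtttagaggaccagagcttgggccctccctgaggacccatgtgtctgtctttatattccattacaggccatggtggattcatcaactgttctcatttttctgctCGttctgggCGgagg
Itgb1: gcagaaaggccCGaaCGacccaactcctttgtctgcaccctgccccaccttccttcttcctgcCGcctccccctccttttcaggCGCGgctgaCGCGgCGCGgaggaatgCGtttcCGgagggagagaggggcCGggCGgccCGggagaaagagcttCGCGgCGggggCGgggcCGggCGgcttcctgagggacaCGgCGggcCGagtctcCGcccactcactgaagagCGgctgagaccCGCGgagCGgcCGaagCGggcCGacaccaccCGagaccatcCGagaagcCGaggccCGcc
Itgav: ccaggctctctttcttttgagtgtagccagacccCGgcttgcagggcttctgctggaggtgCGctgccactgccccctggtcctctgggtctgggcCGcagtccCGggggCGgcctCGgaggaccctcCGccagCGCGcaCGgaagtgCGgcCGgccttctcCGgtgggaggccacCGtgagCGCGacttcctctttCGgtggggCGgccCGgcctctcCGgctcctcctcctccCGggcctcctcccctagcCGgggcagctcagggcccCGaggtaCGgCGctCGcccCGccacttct
They lie at chr1:192089342-192089641 on the plus strand, chr7:135239022-135239321 on the minus strand, chr19:73602027-73602326 on the plus strand and chr3:89245132-89245431 on the plus strand, in that order.

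The Itgam and Itgb7 windows hold 3 CG each, and 30.7% of the 33469 promoters of the table hold no more. In the Itgb7 window the bases after the annotated gene start open with atg, the sequence of a start codon, and hold CG too. The annotated start may therefore lie at the coding start, and whether that window covers the promoter was not tested. The Itgb1 and Itgav windows hold 35 and 27, counts that 6.13% and 13.9% of promoters reach. As a measure of restriction, the highest class over the median class (CPM + 10) was taken in each library and its median over libraries used; it was 5.51 for Itgam and 2.46 for Itgb7, against 1.31 for Itgb1 and 1.55 for Itgav. Across the 22 members with both values, which share the same nuclei and libraries, Spearman's rho between CG count and restriction was -0.57. Several members went against that order, among them Itga9, with 22 CG and a restriction of 5.34, and Lamb3, with 6 and 1.89. Lamc1, with 28 CG and a restriction of 2.56, and Itga8, with 18 and 2.49, lay above Itgb7 in restriction. Genes are not independent replicates, the windows were picked with these levels known, and a CG count says nothing of methylation.

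**Figure D4:**
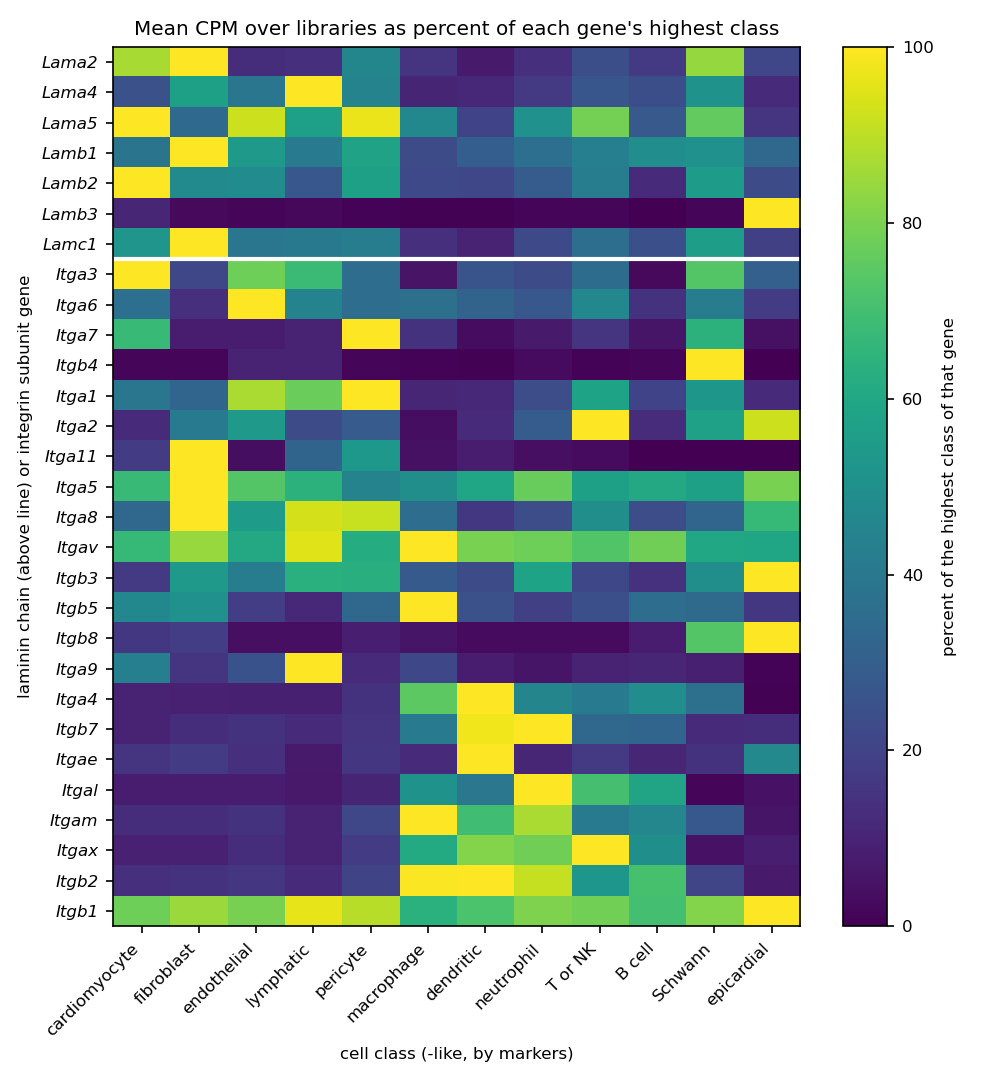
Mean CPM over libraries of the members named in the text with at least 100 UMIs (rows; laminin chains above the white line, integrin subunits below) in 12 marker-based cell classes (columns), coloured as percent of the highest class of each gene. Leukocyte subunits are high in the immune columns, Itgb4 in the Schwann-like column, and Itgb8 in the Schwann-like and epicardial-like columns. Itgb1 is spread over all columns. Epicardial-like means cover libraries 3 and 4 alone.

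Counted over all classes, 30 of 34 members had at least 100 UMIs in the named nuclei. In cardiomyocyte-like nuclei 2 of 30 members, Itga7 among them, were called higher and 0 lower, where 2.96% and 0.384% of all 13820 genes tested were. Fibroblast-like nuclei had 0 higher and 1 lower (Itga7), beside 1.65% and 2.35% of all genes. Endothelial-like nuclei had 0 higher and 2 lower (Itga7 and Lama2), beside 2.44% and 2.06%. Pericyte-like nuclei had 0 in either direction, beside 0.919% and 0.601%. Except in cardiomyocyte-like and endothelial-like nuclei, where 2 members make 6.67% of those tested, these shares are as small as the background, and no result about the members can be read from them. With free RNA subtracted the counts were much larger, 4 higher and 11 lower in cardiomyocyte-like nuclei. Summed over 10 classes there were then 39 higher and 101 lower calls of a member in a class, instead of 18 and 23.

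Macrophage-like nuclei showed the most calls among the large classes, with Itga4, Itgal, Itgam and Itgb2 higher (4 of 30, 13.3%, beside 2.72% of all genes) and 7 of 30 lower, among them Itga1, Itga8, Lama2, Lama4, Lamb2 and Lamc1 (23.3%, beside 5.29%). The members' median difference there was -0.68 on the log2 scale, against -0.05 for all genes. Dendritic-like nuclei had Itga4, Itgae, Itgax and Itgb7 higher and 8 lower (Itga1, Itga7, Itga9, Itgb8, Lama2, Lama4, Lama5 and Lamc1), beside 2.79% and 5.3%. The UMI minimum was summed over all named classes, so a lower call can rest on few UMIs in its own class. In libraries 3 and 4 a UMI of Itga7 was found in 1.85% and 1.67% of dendritic-like nuclei. For Itgb8 the shares were 1.54% and 1.67%, and for Lama5 2.47% and 5%. These lower calls, counted among the 8, are not read as results. Nor is that of Itga8 in macrophage-like nuclei, with 0%, 1.28% and 1.51% in libraries 1, 3 and 4. Neutrophil-like nuclei had Itgal, Itgax, Itgb2 and Itgb7 higher and Itga9, Lama2 and Lamc1 lower, beside 2.47% and 2.27%. Lymphatic endothelial-like nuclei had Itga9 and Lama4 higher and Lama2 lower, beside 1.6% and 2.35%. T or NK cell-like nuclei had Itgal higher and 0 lower (1.53% and 0.933% of all genes). B cell-like nuclei had Itgal higher and Itga9 lower (1.8% and 1.98%). A single member makes 3.33% of those tested, so no result about the members can be read from the T or NK cell-like and B cell-like counts. The same holds for the single lower call in lymphatic endothelial-like nuclei. Set against a mean in which each other class weighed the same, 16 of the 41 calls in classes other than Schwann-like nuclei were lost, and macrophage-like nuclei had 1 higher call (Itgam) instead of 4. With finer clusters (Leiden resolution 2) macrophage-like nuclei had 1 lower call (Lamc1) instead of 7, and with no doublets removed 9 of the 12 dendritic-like calls were lost.

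The class on top was the same in all 4 libraries for 8 of 30 members and in at least 3 libraries for 17. Among the 8 were Itga6 in endothelial-like nuclei, Lamb2 and Lamb3 in cardiomyocyte-like nuclei, and Lamb1, Lamc1, Itga5 and Itga11 in fibroblast-like nuclei. Classes with 50 nuclei differed between libraries, so a library with few immune nuclei could not rank them.

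Between libraries, levels of many genes moved, members among them, and fewer did when library 1 was left out. At least 2-fold between the highest and lowest library (CPM + 10) were 13 of 28 members in cardiomyocyte-like nuclei, where 41.7% of all genes were, and 15 of 28 in fibroblast-like nuclei, where 32.8% were. Endothelial-like nuclei had 12 of 28 (32.5% of all genes), pericyte-like nuclei 10 of 19 (39% of all genes) and macrophage-like nuclei 9 of 22 over 3 libraries (30.1%). Lymphatic endothelial-like, neutrophil-like and T or NK cell-like nuclei had 6 of 11, 4 of 15 and 5 of 17 over 3 libraries, beside 31.6%, 35.3% and 35.1%, and dendritic-like and B cell-like nuclei 0 of 11 and 0 of 7 over 2 libraries, beside 2.29% and 4.46%. In the 5 large classes members were at 46.4%, 53.6%, 42.9%, 52.6% and 40.9%. Without library 1 the counts were 3 of 28, 3 of 26, 5 of 28, 4 of 18 and 1 of 22, where 13.4%, 11.3%, 12.3%, 19.7% and 0.678% of all genes were called. The members' share in cardiomyocyte-like nuclei, and without library 1 also in fibroblast-like and pericyte-like nuclei, is close to that of all genes. In neutrophil-like, T or NK cell-like, dendritic-like and B cell-like nuclei it is below that of all genes. No result about the members can be read from these shares. Calls over all libraries also hold leukocyte subunits not read as expression in fibroblast-like and vessel nuclei. They were Itga4, Itgam and Itgb2 in fibroblast-like, endothelial-like and pericyte-like nuclei, Itgb7 in the first 2, and Itgal and Itgax in fibroblast-like nuclei. The clusters holding most of a class also differed, with cluster 4 in library 1 and cluster 8 in libraries 3 and 4 for cardiomyocyte-like nuclei, 5 and 3 for fibroblast-like nuclei, 6 and 2 for endothelial-like nuclei, and 14 and 1 for macrophage-like nuclei.

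In cardiomyocyte-like and pericyte-like nuclei Lama2, Lamb2 and Itga7 were highest in library 1, and in the 5 large classes Itgb1 and Itga5 were lowest in it; Itga5 in cardiomyocyte-like nuclei spanned no more than 176 to 227 CPM. The 13 members of cardiomyocyte-like nuclei were Itga7, Itga8, Itgb1, Itgb3, Lama2, Lama5, Lamb2 and the leukocyte subunits Itga4, Itgal, Itgam, Itgax, Itgb2 and Itgb7, which are not read as expression there. Lama5 was highest in library 2 in cardiomyocyte-like, fibroblast-like and pericyte-like nuclei at 137, 69.7 and 179 CPM. Since suffixes are not tied to samples, infarction, time, preparation and animal cannot be told apart in these differences.

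**Figure D5:**
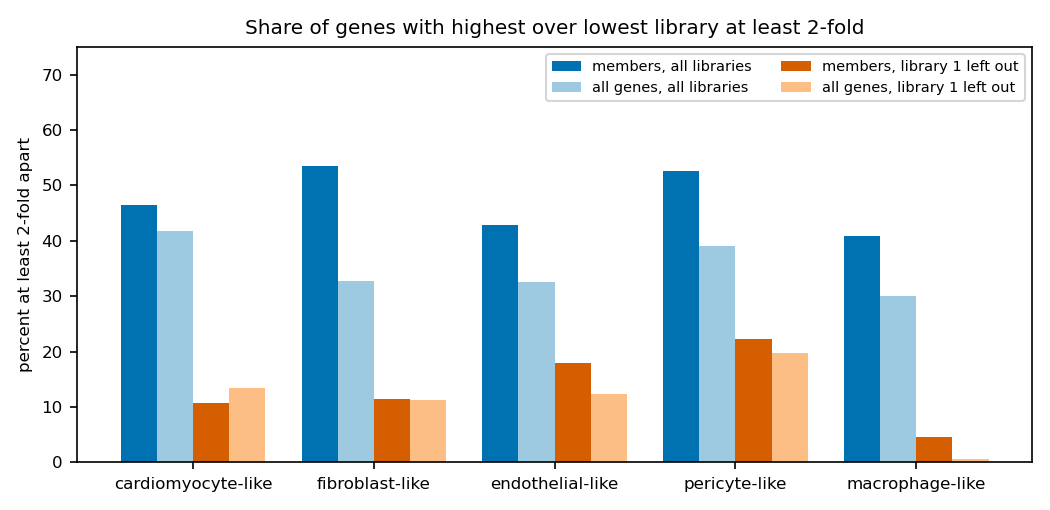
Percent of genes (vertical axis) whose highest library is at least 2-fold above the lowest on the CPM + 10 scale, for members and for all genes with at least 100 UMIs in the class, with and without library 1. Bars for members lie between 40.9% and 53.6% with it and between 4.55% and 22.2% without it.

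Partners of the members were read from 5 gene lists with 81 symbols, 80 of them in the table. Medians below are log2 differences between a class and the other classes, and over all genes they were -0.26, 0.07, -0.03, -0.03 and -0.05 in cardiomyocyte-like, fibroblast-like, endothelial-like, pericyte-like and macrophage-like nuclei. For the members they were -0.21, -0.21, -0.21, -0.11 and -0.68. Beside the list counts stand the shares of all genes called higher and lower in each class. They were 2.96% and 0.384% in cardiomyocyte-like, 1.65% and 2.35% in fibroblast-like, and 2.44% and 2.06% in endothelial-like nuclei. In pericyte-like nuclei they were 0.919% and 0.601%, and in macrophage-like nuclei 2.72% and 5.29%. Of the non-integrin laminin receptors, 4 of 11 tested were called higher in cardiomyocyte-like nuclei, and the medians over the 5 classes were 0.14, -0.17, -1.14, -0.57 and -0.63. Among them were the sarcoglycans Sgca and Sgcd and sarcospan (Sspn), which link laminin to the muscle cytoskeleton. Sgcd was at 1606, 860.2, 835 and 974 CPM in cardiomyocyte-like nuclei, against 179.8, 153, 76.9 and 71 CPM in the other classes. It was the lowest of that list in endothelial-like, pericyte-like and macrophage-like nuclei. Sdc2, a syndecan, was lowest in cardiomyocyte-like nuclei with Rpsa (median log2 differences of -1.08 and -0.75) and was called higher in fibroblast-like nuclei at 293, 318, 269 and 285 CPM, against 41.5, 67.1, 74.8 and 49.1 CPM. In fibroblast-like nuclei Dag1, the dystroglycan, was the next highest at 0.37; in endothelial-like nuclei Bcam and Rpsa led at 1.32 and 0.25, in pericyte-like nuclei Bcam and Dag1 at 0.85 and 0.31, and in macrophage-like nuclei Sdc4 and Sdc1 at 1.09 and 0.93.

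Other basement membrane genes, 13 tested, had medians of -0.36, 0.54, 0.32, 0.17 and -1.23 in the same 5 classes. They had 1 higher call in the 5 large classes, Col4a4 in fibroblast-like nuclei at 630.3, 94.7, 111 and 149 CPM, against 57.7, 33.1, 46.4 and 40.3 CPM; Col4a3, whose chain assembles with that of Col4a4, followed with a median of 1.34, and Col18a1 and Agrn were lowest at -1.19 and -0.64. In cardiomyocyte-like nuclei Col4a5 and Ntn4 led at 1.42 and 0.66, and Nid1, which joins laminin to collagen, and Col15a1 were lowest at -1.44 and -1.21. Endothelial-like nuclei had Agrn and Papln on top (1.01 and 0.93) and Col4a3 and Col4a5 at the bottom (-1.71, called lower, and -1.62). Pericyte-like nuclei had Agrn and Col4a1 on top (1.23 and 0.95) and Col4a5 and Col4a3 at the bottom (-0.71 and -0.62). In macrophage-like nuclei 6 of 13 were called lower, beside 5.29% of all genes. Col4a5 and Ntn4 were lowest there at -2.74 and -2.06, and Papln and Nid2 highest at -0.41 and -0.66.

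Inside the cell, adaptors and kinases that act on integrin tails had 3 higher and 5 lower calls in the 5 large classes among 19 tested, with medians of -0.20, -0.13, 0.09, 0.16 and -0.20. Fermt3, the kindlin of blood cells, and the kinase gene Ptk2b were called higher in macrophage-like nuclei, at 564, 419 and 547 CPM, against 11.3, 104 and 65.1 CPM, and 216, 261 and 311 CPM, against 22.2, 112 and 68.4 CPM, in libraries 1, 3 and 4. Fermt2, the kindlin of most other cells, and Parva were lowest there at -2.18 and -2.25. They were among 4 of 19 called lower in that class, beside 5.29% of all genes. In cardiomyocyte-like nuclei Itgb1bp2, melusin, a muscle protein that binds the Itgb1 tail, was called higher at 119, 81.4, 66.8 and 87.3 CPM, against 11.8, 16.9, 11.2 and 11.5 CPM; Lims2 followed at 1.14, and Pxn was lowest, with Fermt3 among the next, at -1.16 and -0.76. In fibroblast-like nuclei Parva and Src led (0.61 and 0.49), and Lims2, called lower, and Parvb were lowest (-2.19 and -1.23). Endothelial-like nuclei had Pxn and Ptk2 on top (1.13 and 1.00) and Itgb1bp2 and Fermt3 at the bottom (-1.19 and -0.77), and pericyte-like nuclei Src and Fermt2 (1.15 and 0.80) against Tln2 and Lims2 (-0.84 and -0.82).

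Ligands other than laminin, 18 tested, had medians of -0.88, -0.18, 0.11, -0.08 and -0.77. Spp1 (osteopontin) was at 558, 8699.5 and 8192 CPM in macrophage-like nuclei of libraries 1, 3 and 4, against 12.9, 3051 and 1042 CPM, and Fn1 and Edil3 were called higher there too, Edil3 with a median of 2.38; Jam3 and Fbn1 were lowest at -1.77 and -1.34. Fbn1 and Postn were called higher in fibroblast-like nuclei at 1565, 1756, 2395 and 2128 CPM and 197, 432, 881 and 894 CPM, against 99.7, 368, 586 and 382 CPM and 9.17, 107, 283 and 159.8 CPM in the other classes, with Tnc as the third; F11r, called lower, and Vcam1 were lowest at -1.49 and -1.11. Vcam1, the ligand of the Itga4 product, was called higher in endothelial-like nuclei at 81.1, 98.2, 103 and 89.6 CPM, against 3.22, 15.7, 14 and 13.1 CPM, with F11r (2.18), Icam2 and Jam2, while Tnc and Postn were called lower (-1.37 and -1.37). Vtn was called higher in pericyte-like nuclei at a median of 2.47, but it was one of the markers that named the class and is no result; Mfge8 followed at 0.82, and Vcam1 and Postn were lowest at -0.84 and -0.69. In cardiomyocyte-like nuclei 0 of 18 ligands were called, with Jam3 and Ccn1 at 0.13 and 0.02 and Fbn1 and Vcam1 at -1.67 and -1.33.

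Membrane proteins that associate with integrins, 13 tested, had medians of -0.65, 0.06, 0.21, -0.10 and 0.04. Cav1 and Tgm2 were called higher in endothelial-like nuclei at 374, 129, 238 and 294 CPM and 298, 380.3, 546 and 624 CPM, against 16.6, 54.5, 49.7 and 83.7 CPM and 48.5, 116, 139 and 227 CPM, with the tetraspanin gene Cd9; Itgbl1, called lower, and Emp2 were lowest at -2.45 and -0.66. Itgbl1, an integrin beta-like secreted protein, was called higher in fibroblast-like nuclei at 1430.4, 421, 539 and 527 CPM, against 51.1, 64.9, 79.2 and 47.3 CPM, and lower in macrophage-like nuclei at -2.41. Cd63 was next in fibroblast-like nuclei at 0.48, and Cav1 and Tgm2 were lowest there at -1.14 and -0.95. In macrophage-like nuclei Plaur and Cd82 led at 1.19 and 0.82, and Cav1 was at -1.61. Cardiomyocyte-like nuclei had Emp2 and Bsg on top (0.81 and -0.24) and Itgbl1 and Cd9 at the bottom (-1.32 and -1.25); pericyte-like nuclei had Cav1 and Cd63 (0.21 and 0.16) and Itgbl1 and Bsg (-1.14 and -0.46), with 0 of 13 called in either class.

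Lama1, Lamc3, Itga10 and Itgb6, the 4 remaining members, had 14, 54, 89 and 91 UMIs in the named nuclei, too few for a call. Lamc3 was highest in the pericyte-like nuclei of library 1, at 23.4 CPM (95% interval 13.9 to 37), and inside that class in the nuclei named by pericyte markers, at 33.6 CPM. Itgb6 was at 22.8 CPM in the epicardial-like nuclei of library 3, from 5 UMIs, and at 0 in those of library 4. At this depth differences in the other classes were not detectable for these 4 genes.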

How the data were processed

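The deposited table gives the authors' whole-number counts of UMIs per gene and barcode, pooled over 4 libraries; per the file headers it was written by cellranger 5.0.1, while the submitters' processing notes list Cell Ranger 6.1.1, Seurat and the build rn7. Which build was used is not settled, so no coordinate of the table is given. Barcodes below 500 UMIs or 300 genes, or above 10% mitochondrial UMIs, were dropped. Predicted doublets (0.8% per 1000 nuclei of a library) were removed, and nuclei were clustered with scanpy 1.11.5 (2000 variable genes without members, 30 components, 15 neighbours, Leiden resolution 1). Clusters were named from markers, and those left unnamed were split and named again. UMIs were summed per class and library, giving 15729873, 12801263, 38488976 and 20408884 UMIs per library in all. A call needed 2-fold on CPM + 10 in every library with 50 nuclei. Intervals are exact Poisson for levels and exact conditional binomial for ratios. Calls were checked on simulated counts. Members and lists were chosen with earlier results of these data known; the second split, the naming rule, the comparisons of parts within classes, the CG count and the alternatives of equal weights, mixed parts, unsplit clusters and leaving out libraries 1, 3 or 4 were chosen after these data were seen. All members with at least 100 UMIs were named, and of each list the 2 highest and 2 lowest genes; the results of 2 genes are not reported here.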

Additional observations from a re-analysis of the deposited data

Results flagged for a closer look

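The 10986 unnamed nuclei of library 2 entered no comparison, because no cluster of theirs carried enough markers of 1 class. They held members above the 0.33 CPM that a count of 0 allows. Free RNA was not estimated in them, and in the named classes of library 2 its upper estimate was 47% to 79.7% of UMIs. Lamc1 was at 1190.8 CPM (95% interval 1168.5 to 1213.4) in them, against 1514.4 CPM in the named nuclei of library 2. Lama2 was at 705.6 CPM (688.5 to 723.1), against 1038.4 CPM in the named nuclei. Itgb1 was at 627 CPM (610.9 to 643.5), against 566.5 CPM in the named nuclei. Their median UMI count was 582.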

How the results depend on the processing

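Of 41 calls of a member in a class, 12 held under all 15 alternatives run and 0 changed direction. The 15 include leaving out each library in turn and a pseudocount of 1 CPM, which by the rule could lose no call. A call had to pass in every library, and a smaller pseudocount only widens a fold. Calls kept in these runs are therefore no support. With free RNA subtracted, 41 calls were kept as well. That run took a share of the library's pooled profile from each class, and the number of calls rose. Calls kept in it are not read as support either. Among those 12 were Itga7 in fibroblast-like, Lama2 in endothelial-like, Lama2, Lama4 and Itga9 in lymphatic endothelial-like, Itgam and Lamc1 in macrophage-like, Itgae and Lama2 in dendritic-like, and Itgb7 and Itga9 in neutrophil-like nuclei. Summed over the 10 classes there were 18 higher calls, 23 lower calls and 74 between libraries, each of 1 member in 1 class.

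With free RNA subtracted these sums were 39 higher and 101 lower. Higher and lower calls were then 4 and 11 in cardiomyocyte-like, 2 and 6 in fibroblast-like, 2 and 4 in endothelial-like, 2 and 3 in pericyte-like and 7 and 12 in macrophage-like nuclei, and calls between libraries 7 in fibroblast-like and 5 in pericyte-like nuclei. With a pseudocount of 1 CPM there were 50 lower calls in all, with 2 in cardiomyocyte-like, 3 in fibroblast-like (and 1 higher), 5 in endothelial-like (and 2 higher), 2 in pericyte-like and 13 in macrophage-like nuclei. With median-of-ratios scaling cardiomyocyte-like nuclei had 5 higher, fibroblast-like 2 lower and endothelial-like 1 lower. With other classes weighted equally there was 1 lower call in cardiomyocyte-like, 5 in fibroblast-like and 4 in endothelial-like nuclei, and 1 higher in pericyte-like and in macrophage-like nuclei. Leaving out cardiomyocyte-like parts of high UMI count gave 1 lower call in cardiomyocyte-like nuclei, and 1 higher and 1 lower in endothelial-like nuclei. Leiden resolution 2 gave 2 lower in fibroblast-like, 1 in endothelial-like and 1 in macrophage-like nuclei. Fibroblast-like lower calls were 2 with members among the variable genes or mixed parts left out and 3 with unnamed clusters not split. Endothelial-like higher calls were 1 with members among the variable genes, mixed parts left out or at least 1000 UMIs. With no doublets removed pericyte-like nuclei had 1 lower call. The cause of these changes was not tested.

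Leaving out 1 library at a time, calls between libraries ran from 3 to 13 in cardiomyocyte-like, 3 to 14 in fibroblast-like, 5 to 11 in endothelial-like, 4 to 8 in pericyte-like and 1 to 9 in macrophage-like nuclei, the lowest each time without library 1, and from 20 to 62 in all, with 48 without library 3. Higher calls ran from 2 to 3, 0 to 1, 0 to 1, 0 to 1 and 4 to 6 in those classes and from 19 to 28 in all. Lower calls ran from 0 to 1, 1 to 4, 2 to 4, 0 to 0 and 7 to 9, and from 23 to 48 in all, both sums highest without library 3. Lists had 24 higher and 28 lower calls, and 8 members kept 1 top class, each within 1.5 times under the alternatives run. No paired analysis was possible because each sample is 1 library and no suffix is tied to a sample. Classes under 50 nuclei in a library were too shallow to compare, and 85.2% of the nuclei of library 2 stayed unnamed, with a median of 582 UMIs.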
